A study of Coelastrella tenuitheca with 9 samples.

Results

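Ribosome assembly and nucleolar factors are described here in the green microalga Coelastrella tenuitheca, strain S93-3 (wild type), grown with and without cadmium. The set comprises 10 genes of the 12605 in the deposited count table, chosen by gene identifier from earlier results of these same libraries. Their levels in the 3 groups chose them, so the members' values and fold changes are given as a description, without a p-value. All 10 passed the filter on low counts that left 11140 genes, and their counts ranged from 20 to 6029 per library. In the deposited table the product name of each member cites a fungal species, so it records likeness to a fungal protein rather than work on the algal gene. No other gene in the table carried the same product name as any member. The names fit the label, with the exception of A00786, whose entry reads only "ribosome assembly" and names no protein.

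Ribosomes are built in the nucleolus, where RNA polymerase I transcribes a long precursor of the ribosomal RNAs. Assembly factors, studied mainly in yeast, fold, methylate and cut this precursor while ribosomal proteins join it, and GTPases and RNA helicases drive steps of maturation and export of the large and small subunits. The transcripts of these factors are known in yeast to rise and fall together with growth, and the pathway is one of the main costs of a growing cell.

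Cells pre-cultured for 5 days with 20 g/L glucose under continuous light were moved to fresh medium with CdCl2 at 0, 20 or 50 mg/L and kept for 7 days at 28 °C with shaking. Poly(A) RNA was sequenced from 3 libraries per group, called control, Cd20 and Cd50 with the replicate number of the labels, and all libraries carry the same batch label. Whether replicates were grown apart is not stated in the labels, so the p-values cover the spread among these 9 samples, which may be technical. Gene counts summed to between 10457007 and 15456743 per library. The photosynthetic cell named in the labels was represented by 16 chlorophyll a-b binding and Rubisco small subunit genes, none of them at 0 in all libraries. Summed over these markers, 14 of which were tested, the mean level was 3074 CPM in control, 1863 in Cd20 and 2137 in Cd50. Its part in the members' differences was not tested. Levels between libraries are CPM (counts scaled to a common library total with TMM factors), and a CPM value is a share of the poly(A) RNA, so fewer cells with a transcript and less of it per cell cannot be told apart.

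Control 1 and Cd50 1 stood apart from the other libraries of their groups. On the first principal component of all tested genes (61.6% of the variance) Cd20 lay between -54.3 and -42.0, Control 1 at -12.2 against 12.1 and 26.5 for the other controls, and Cd50 1 at 16.4 against 49.0 and 50.3 for the other Cd50 libraries. Both were thus displaced towards Cd20. For part of the results, values without these libraries are given as well.

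The nucleolar GTPases and large subunit factors had their highest levels at 20 mg/L. A08092 (nucleolar GTP-binding protein 2, whose yeast counterpart is a GTPase of late nuclear large subunit precursors; chromosome 5, 2441830 to 2446403 in the deposited coordinates) was measured at 219, 118 and 155 CPM in Control 1 to 3, at 502, 525 and 609 in Cd20 1 to 3, and at 250.0, 81.8 and 79.3 in Cd50 1 to 3. All Cd20 libraries lay above all others, and Cd50 1 lay above every control while Cd50 2 and 3 lay below every control. Its log2 fold change was 1.73 (SE 0.38) for Cd20 against control, -0.26 (SE 0.37) for Cd50 against control and -2.0 (SE 0.38) for Cd50 against Cd20. Without Cd50 1 the value for Cd50 against control became -1.03, without Control 1 it became 0.02, and without both it became -0.74.

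A05852 (named for guanine nucleotide-binding protein-like 3, which in mammals is the nucleolar GTPase nucleostemin; chromosome 2, 5634284 to 5640650) was at 21.1, 12.9 and 18.8 CPM in the controls, 106, 109 and 143 in Cd20, and 53.8, 21.9 and 22.0 in Cd50. The groups did not overlap in the order Cd20, Cd50, control, although Cd50 2 exceeded Control 1 only narrowly. The log2 fold changes were 2.76 (SE 0.32) for Cd20 against control, 0.88 (SE 0.32) for Cd50 against control and -1.88 (SE 0.31) for Cd50 against Cd20. Without Cd50 1 the middle value fell to 0.31, and without Control 1 and Cd50 1 it was 0.49.

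A03067 (nop7, the yeast counterpart of pescadillo, needed for large subunit assembly; chromosome 15, 3220465 to 3225808) went from 23.1, 13.8 and 17.8 CPM in the controls to 80.2, 83.2 and 109.9 in Cd20, and stood at 37.8, 17.2 and 17.8 in Cd50. Cd20 was separate from the other groups, whereas Cd50 and control overlapped. Fold changes on the log2 scale were 2.31 (SE 0.29) for Cd20 against control, 0.40 (SE 0.29) for Cd50 against control and -1.91 (SE 0.28) for Cd50 against Cd20. The value for Cd50 against control was -0.07 without Cd50 1 and 0.17 without Control 1 and Cd50 1.

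A02270 (brx1, a Brix-domain protein of early large subunit assembly in yeast; chromosome 14, 524045 to 526731) moved less upward at 20 mg/L and further down at 50 mg/L. It was at 52.4, 28.3 and 41.0 CPM in the controls, 63.3, 58.3 and 73.9 in Cd20 and 33.5, 13.5 and 13.8 in Cd50. Cd20 lay above the controls without overlap, and Cd50 1 lay within the range of the controls. The log2 fold changes were 0.68 (SE 0.30), -1.01 (SE 0.32) and -1.69 (SE 0.32) for Cd20 against control, Cd50 against control and Cd50 against Cd20. Without Control 1 and Cd50 1 they were 0.93, -1.32 and -2.24.

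**Figure D1:**
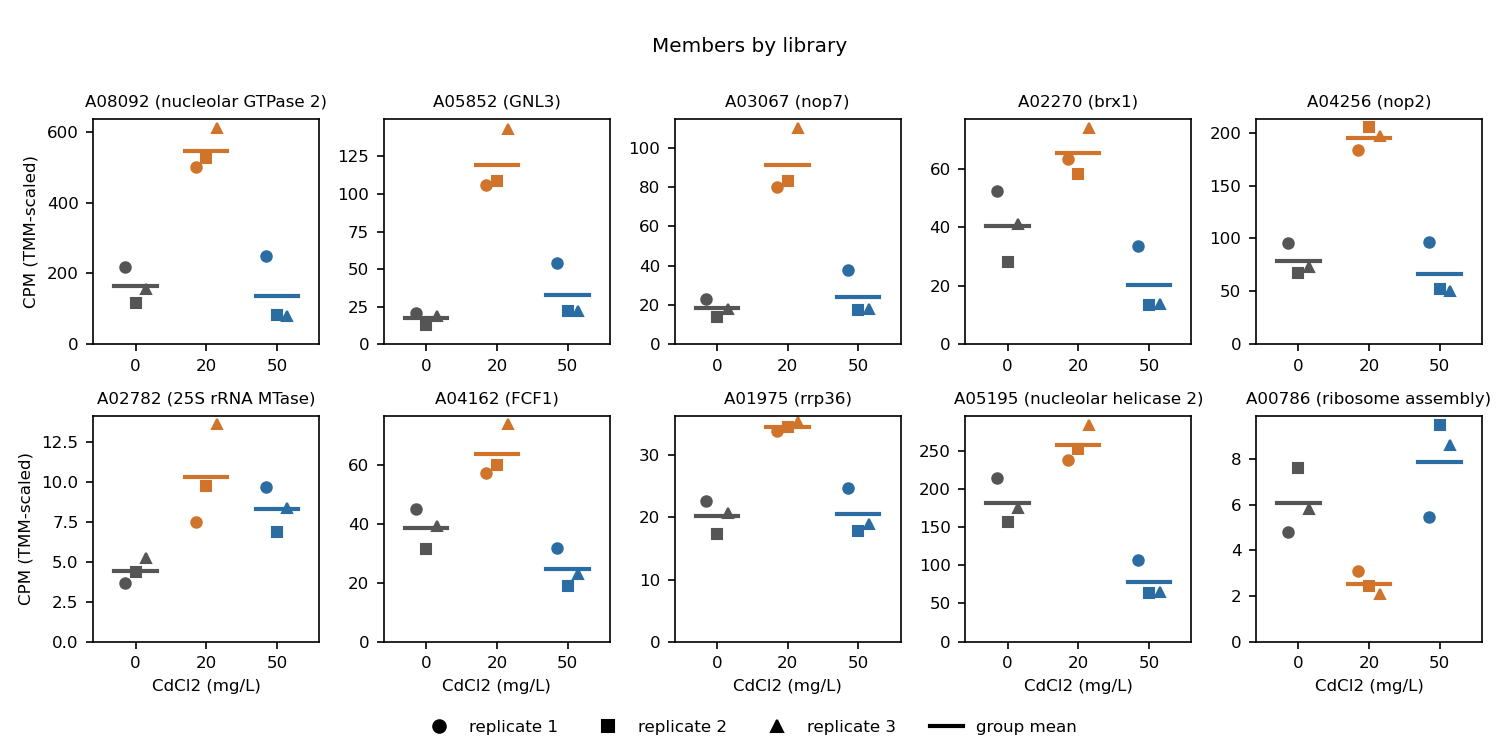
TMM-scaled CPM (vertical axes, each from 0) of the 10 members by CdCl2 concentration (horizontal axes, mg/L), with 1 symbol per replicate number and a bar at the group mean. Cd20 is the highest group for 9 members (for A02782 not with library size alone) and the lowest for A00786, and the circle of Cd50 1 lies closer to the Cd20 mean than the other Cd50 libraries for all 10.

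The ribosomal RNA methyltransferases A04256 and A02782 had their highest mean CPM in Cd20, which for A02782 did not hold with library size alone. A04256 (nop2, which in yeast methylates a cytosine of the large ribosomal RNA; chromosome 1, 2083744 to 2089226) was at 95.9, 67.6 and 73.0 CPM in the controls, 184, 205 and 196 in Cd20 and 96.7, 52.4 and 50.8 in Cd50. All Cd20 libraries lay above every library of the other groups, and Cd50 1 was close to Control 1. Its log2 fold changes were 1.31 (SE 0.22) for Cd20 against control, -0.25 (SE 0.22) for Cd50 against control and -1.55 (SE 0.22) for Cd50 against Cd20. Leaving out Cd50 1 gave -0.62 for Cd50 against control, and leaving out Control 1 as well gave -0.42.

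A02782 (an adenine methyltransferase of the large ribosomal RNA; chromosome 15, 1348287 to 1351659) was among the lowest members, at 3.65, 4.39 and 5.25 CPM in the controls, 7.52, 9.76 and 13.6 in Cd20 and 9.70, 6.88 and 8.40 in Cd50. Both cadmium groups lay above the controls, and they overlapped with each other. The log2 fold changes were 1.22 (SE 0.24) for Cd20 against control, 0.91 (SE 0.24) for Cd50 against control and -0.31 (SE 0.23) for Cd50 against Cd20. The sign of the last value depended on the scaling, since it was 0.05 when library size alone was used.

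The small subunit factors were also highest at 20 mg/L. A04162 (FCF1, in yeast a component of the complex that processes the small subunit precursor; chromosome 1, 1442427 to 1445086) was at 45.2, 31.3 and 39.3 CPM in the controls, 57.3, 60.1 and 73.8 in Cd20 and 31.8, 19.0 and 22.8 in Cd50. Cd20 was separate from the controls, and Cd50 touched the control range only through Cd50 1, which lay just above Control 2. The log2 fold changes were 0.72 (SE 0.19) for Cd20 against control, -0.66 (SE 0.19) for Cd50 against control and -1.38 (SE 0.19) for Cd50 against Cd20.

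A01975 (rrp36, which in yeast acts in early cleavage of the ribosomal RNA precursor; chromosome 13, 2809685 to 2811289) was at 33.9, 34.5 and 35.4 CPM in Cd20, against 22.6, 17.3 and 20.7 in the controls and 24.8, 17.8 and 18.9 in Cd50. Cd20 was separate from both other groups, which overlapped each other in part, with means of 20.2 ± 2.67 and 20.5 ± 3.76 CPM (SD, n = 3). Its log2 fold changes were 0.77 (SE 0.15) for Cd20 against control, 0.02 (SE 0.15) for Cd50 against control and -0.76 (SE 0.15) for Cd50 against Cd20.

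A05195 (nucleolar RNA helicase 2, a name given in mammals to a DEAD-box helicase that acts in ribosomal RNA synthesis and processing; chromosome 2, 1689302 to 1693267) was the member whose 3 groups were fully separate in the order Cd20, control, Cd50. Its CPM values were 238, 253 and 284 in Cd20, 215, 157 and 175 in the controls and 107, 63.5 and 65.6 in Cd50. Cd20 exceeded the controls by a small margin, with a log2 fold change of 0.50 (SE 0.18), while Cd50 was lower than the controls by a larger one, at -1.21 (SE 0.19). For Cd50 against Cd20 the value was -1.72 (SE 0.19).

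A00786 (chromosome 11, 2085868 to 2089083) had the opposite sign to the other 9 members in both comparisons with Cd20. It was at 4.82, 7.62 and 5.83 CPM in the controls, 3.08, 2.44 and 2.08 in Cd20 and 5.48, 9.52 and 8.64 in Cd50. Cd20 lay below both other groups without overlap, and Cd50 overlapped the controls through Cd50 1. Its log2 fold changes were -1.25 (SE 0.28) for Cd20 against control, 0.38 (SE 0.24) for Cd50 against control and 1.64 (SE 0.27) for Cd50 against Cd20. In Cd20 its counts were the lowest of the set, at 20 to 32 per library.

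**Figure D2:**
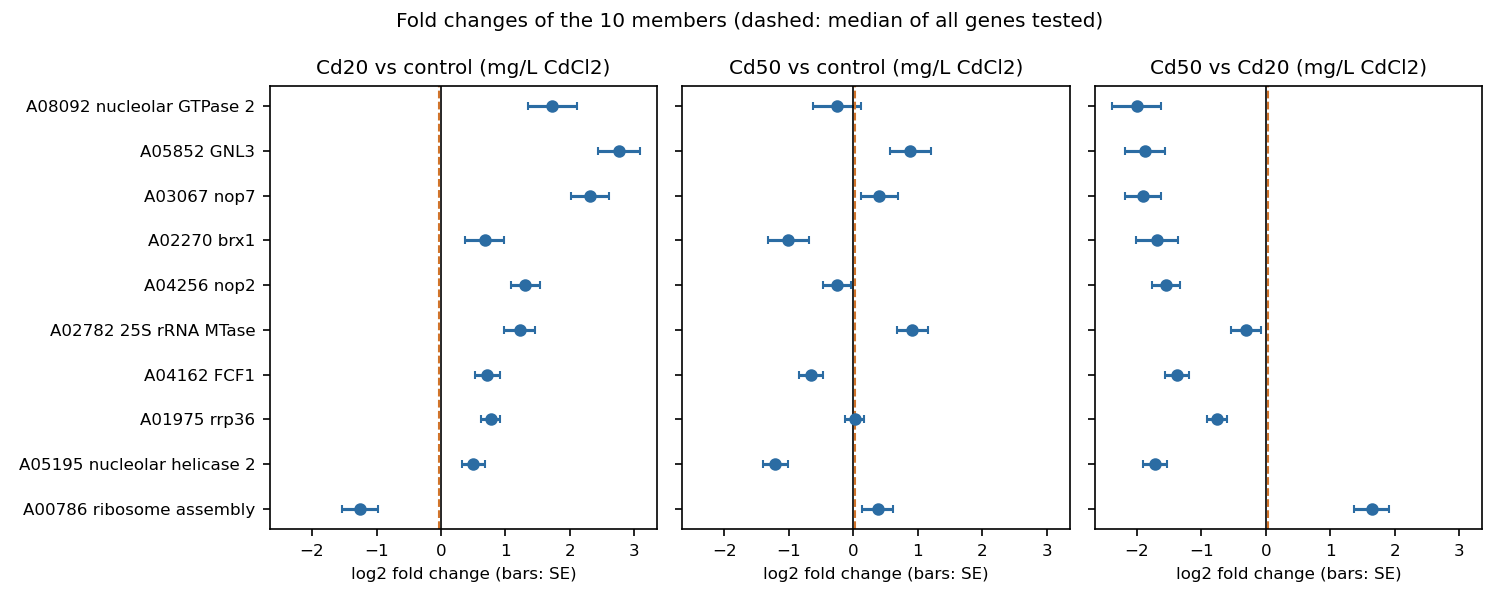
Log2 fold changes (horizontal axes) of the 10 members in the 3 comparisons, from the edgeR fit over all genes, with bars of 1 standard error and a dashed line at the median of all genes tested. In the left panel 9 members lie right of 0 and A00786 at -1.25, and in the right panel those 9 lie left of 0, from -2.0 to -0.31, with A00786 at 1.64.

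Levels can be compared between genes only per length, for which the deposited FPKM values (fragments scaled by gene length and library total) were used. In the controls A05195 (82.5 ± 10.8 FPKM, SD, n = 3), A08092 (74.7 ± 21.1) and A04162 (65.1 ± 10.1) had the highest FPKM levels of the set, and their ranges overlapped. In Cd20 A08092 was highest at 229.8 ± 22.9 FPKM, separate from A05195 (108 ± 9.55) and A04162 (99.0 ± 13.3), which overlapped each other. In Cd50 A08092 (71.8 ± 46.3 FPKM) spanned 44.6 to 125 and overlapped A04162 (48.4 ± 9.94) and A05195 (41.5 ± 10.0). The lowest FPKM levels were those of A02782 (2.65 ± 0.538, 5.64 ± 1.67 and 5.81 ± 0.725 in control, Cd20 and Cd50) and A00786 (3.85 ± 0.990, 1.47 ± 0.292 and 5.90 ± 1.88). Among all 12605 genes, A03067 moved from the percentile 44.7 of FPKM levels in the controls to 74.7 in Cd20 and 49.3 in Cd50, and A05852 from 45.9 to 80.5 and 57.8. A00786 was at the percentiles 30.9, 21.8 and 33.2. The 10 members together took 0.0455% to 0.0660% of all counts in the controls, 0.114% to 0.137% in Cd20 and 0.0359% to 0.0693% in Cd50, where Cd50 1 held the highest value.

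**Figure D3:**
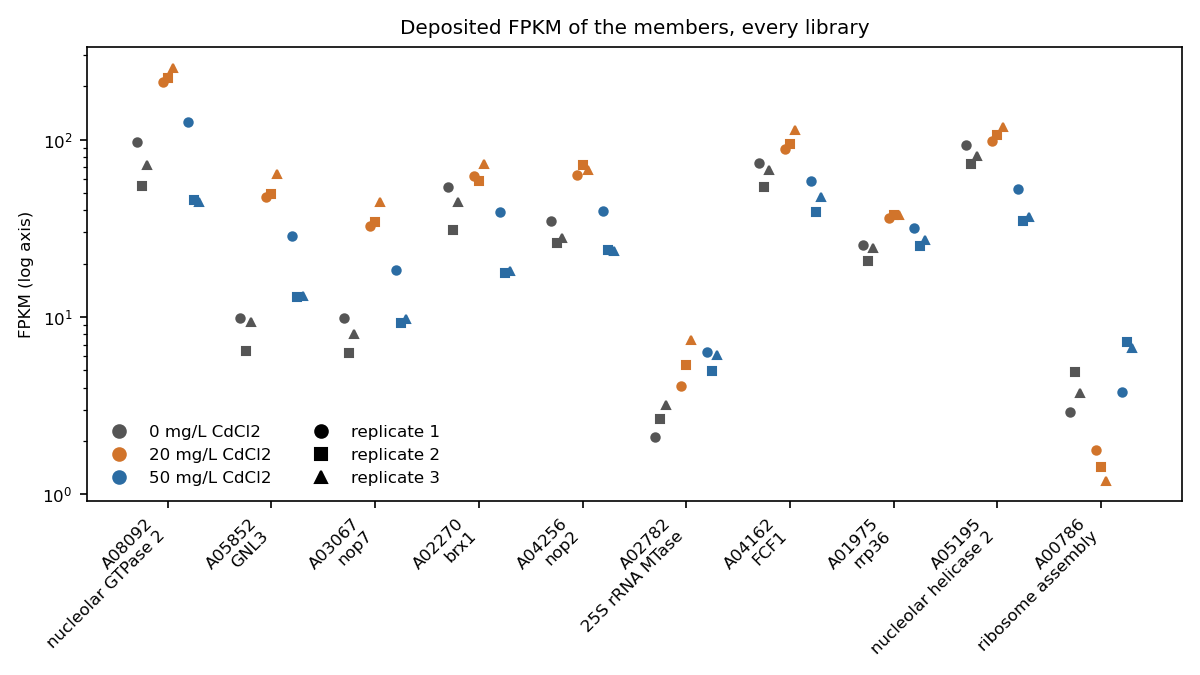
Deposited FPKM (vertical axis, log scale) of each member in each of the 9 libraries, coloured by CdCl2 concentration with 1 symbol per replicate number. A08092 reaches 211 to 255 FPKM in Cd20, whereas A02782 and A00786 stay under 8 FPKM in every library.

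At 20 mg/L against control, the members and the other ribosome assembly genes were mostly higher. Of the 10 members, 8 were past the threshold of an edgeR adjusted p under 0.05 as higher and 1 as lower, where 51.0% of all genes tested were past it, 23.8% higher and 27.2% lower. The brx1 gene A02270 was higher without passing. The CPM values of the 3 Cd20 and 3 control libraries did not overlap for all 10 members, 9 higher and A00786 lower, against 30.2% and 31.4% of all genes. The members' median log2 fold change was 1.00, and that of all genes was -0.03. Because these levels chose the members, nothing is read from the counts. The helicase A05195 was under the threshold when Control 2 (log2 fold change 0.41), Control 3 (0.47), Cd20 1 (0.53), Cd20 2 (0.52) or Cd20 3 (0.44) was left out, while A02270 was past it without Control 1 (0.93) or without Cd50 1 (0.68).

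The other genes of the pathway were taken by product words, which gave 25 genes, all tested. These words were chosen with earlier results of these data known, so the 25 genes are no independent check of the members. At 20 mg/L 18 of these rose and 1 fell, and 6 were under the threshold, beside the 23.8% and 27.2% of all genes, and their median log2 fold change was 0.85. By role, 6 of 8 small subunit genes, 4 of 5 genes of ribosomal RNA modification, 3 of 3 large subunit genes, 4 of 8 other processing genes and the single RNA polymerase I gene rose. A08857 (Spb1 C-terminal domain, from a large subunit RNA methyltransferase of yeast) stood at 14.7 ± 1.16 CPM in the controls and rose to 44.6 ± 9.34 (SD, n = 3), which is 1.60 on the log2 scale (SE 0.17, edgeR adjusted p = 2.18e-05). A07533 (PNO1, a small subunit factor) rose from 12.8 ± 3.25 to 34.2 ± 2.44 CPM and A07627 (rpf2, which in yeast helps to place the smallest ribosomal RNA in the large subunit) from 37.7 ± 9.88 to 95.6 ± 8.30. A08731, named only as a ribosomal RNA processing protein, rose from 29.8 ± 6.67 to 72.0 ± 5.29 CPM, and A07321 (Fcf2 domain, of a yeast factor of ribosomal RNA processing) from 25.7 ± 11.3 to 56.4 ± 4.16. A10817 (ribosome production factor 1, a Brix-domain protein) rose from 6.28 ± 0.599 to 13.4 ± 4.42 CPM. The edgeR adjusted p of these 6 genes lay between 2.18e-05 and 0.00811. They were named as the largest rises among called genes, so values under 0.05 were fixed by that choice.

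The RNA polymerase I subunit A09438, which is part of the enzyme that makes the ribosomal RNA precursor, was at 33.5, 46.1 and 41.2 CPM in the controls and at 63.5, 65.5 and 93.0 in Cd20 (log2 fold change 0.88, edgeR adjusted p = 0.000967). Fibrillarin A08658, the methyltransferase of the box C/D ribonucleoproteins, went from 379, 249 and 296 to 520.1, 529 and 553 CPM (log2 fold change 0.79, edgeR adjusted p = 0.00095). Both genes were picked after their values were seen. The gene that fell was A03888 (rrp4, a subunit of the RNA-degrading exosome), from 34.2 ± 3.36 to 26.0 ± 2.21 CPM (log2 fold change -0.39, edgeR adjusted p = 0.0231). That call was lost without Control 2 (-0.32, adjusted p = 0.085), Control 3 (-0.40, 0.0631), Cd20 2 (-0.35, 0.0898) or Cd20 3 (-0.35, 0.0834) in edgeR. The 69 ribosomal protein genes taken by product words had 28 rises (40.6%), 0 falls and a median of 0.25 in the same comparison, where 23.8% of all genes rose and 27.2% fell around a median of -0.03. A difference between them and the assembly genes was not tested.

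At 50 mg/L against control, the members had no common direction. This comparison uses the same 3 control libraries as that at 20 mg/L, so their values stand side by side and no overlap between them was counted. Past the threshold, A05852 (log2 fold change 0.88) and A02782 (0.91) were higher and A02270 (-1.01), A05195 (-1.21) and A04162 (-0.66) were lower, where 39.6% of all genes were past it, 17.8% higher and 21.8% lower. The groups did not overlap for 2 members that were higher (A05852 and A02782) and 1 that was lower (A05195), against 23.3% and 23.6% of all genes. The members' median was -0.12 and that of all genes 0.03. Because these levels chose the members, nothing is read from the counts or from the calls gained or lost below. Leaving out Cd50 1 made A08092 (-1.03) and A04256 (-0.62) lower past the threshold and A00786 (0.58) higher, and put A05852 (0.31) under it. With Control 1 left out as well, A08092 (-0.74) and A04256 (-0.42) were lower past the threshold. A05852 (0.49) was then higher past it, and A00786 (0.45) was under it. In the same fit A05195 (-1.34), A02270 (-1.32) and A04162 (-0.74) stayed lower past the threshold, and A02782 (0.68) stayed higher. The calls of A02270 and A04162 were lost without Control 1 (-0.76 and -0.51), Control 3 (-1.0 and -0.65), Cd50 2 (-0.77 and -0.48) or Cd50 3 (-0.78 and -0.59), and that of A05852 without Control 2 (0.70), Control 3 (0.92), Cd20 1 (0.89) or Cd20 2 (0.88). With library size alone the call of A04162 (-0.43) was lost. So were those of A02270 (-1.0) and A05852 (0.89) with only the 6 libraries compared, and that of A05852 in DESeq2 (0.88).

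At this dose 3 of the 25 other pathway genes rose and 3 fell, and 19 were under the threshold, beside 17.8% and 21.8% of all genes, with a median of 0.02. A08857 rose from 14.7 ± 1.16 to 22.0 ± 3.48 CPM (log2 fold change 0.58, edgeR adjusted p = 0.018), A06096 (a domain of the helicase that feeds RNA to the exosome in yeast) from 38.8 ± 1.27 to 51.5 ± 4.66 (0.41, 0.0101) and A08844 (KRR1, a small subunit factor) from 10.7 ± 0.872 to 14.2 ± 1.19 (0.40, 0.0316). A09270, a protein named for binding the small nucleolar RNAs that guide modification, fell from 41.9 ± 4.39 to 27.2 ± 6.69 CPM (-0.63, edgeR adjusted p = 0.00897). A08658 (fibrillarin) fell from 308 ± 65.9 to 232 ± 31.1 (-0.41, 0.0396) and A10371 (SDA1 domain, of a large subunit export factor in yeast) from 123 ± 9.35 to 98.0 ± 16.8 (-0.33, 0.0494). These genes were named from those past the threshold, so values under 0.05 were fixed by that choice. The counts moved with the scaling, since with library size alone 10 rose and 1 fell. A08658 (-0.17, edgeR adjusted p = 0.222) and A10371 (-0.1, 0.403) were then under the threshold. With Control 1 and Cd50 1 left out 5 rose and 5 fell, and the falls then included A01526 (-0.57) and A02069 (-0.43).

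Calls of A08658, A10371 and A08844 were lost when single libraries were left out. Without Control 1 the first 2 were at -0.21 and -0.25 (edgeR adjusted p = 0.206 and 0.167), without Control 3 at -0.44 and -0.34 (0.0719 and 0.104), without Cd50 2 at -0.32 and -0.24 (0.155 and 0.204) and without Cd50 3 at -0.35 and -0.23 (0.134 and 0.207). Without a Cd20 library they were at -0.41 to -0.39 and -0.33 to -0.31, with edgeR adjusted p of 0.0596 to 0.0798. A08844 was lost without Control 2 (0.34, edgeR adjusted p = 0.0801), Control 3 (0.41, 0.0793), Cd20 2 (0.40, 0.0515), Cd50 2 (0.42, 0.078) or Cd50 3 (0.37, 0.104), and A08857 without Control 3 (0.56, 0.0611). Same-numbered residuals correlated at 0.623, 0.479 and 0.204 in this comparison, although Cd50 3 correlated better with another control (0.424). With the replicate number as a block, 5 pathway genes rose and 3 fell. The rises added were A01234 (a nucleolar phosphoprotein, 0.43, edgeR adjusted p = 0.0316) and A04033 (rio2, a kinase of small subunit maturation in yeast, 0.67, 0.0324). Of the 69 ribosomal protein genes 4 rose and 5 fell, which is 5.80% and 7.25% of them, where 17.8% and 21.8% of all genes did.

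**Figure D4:**
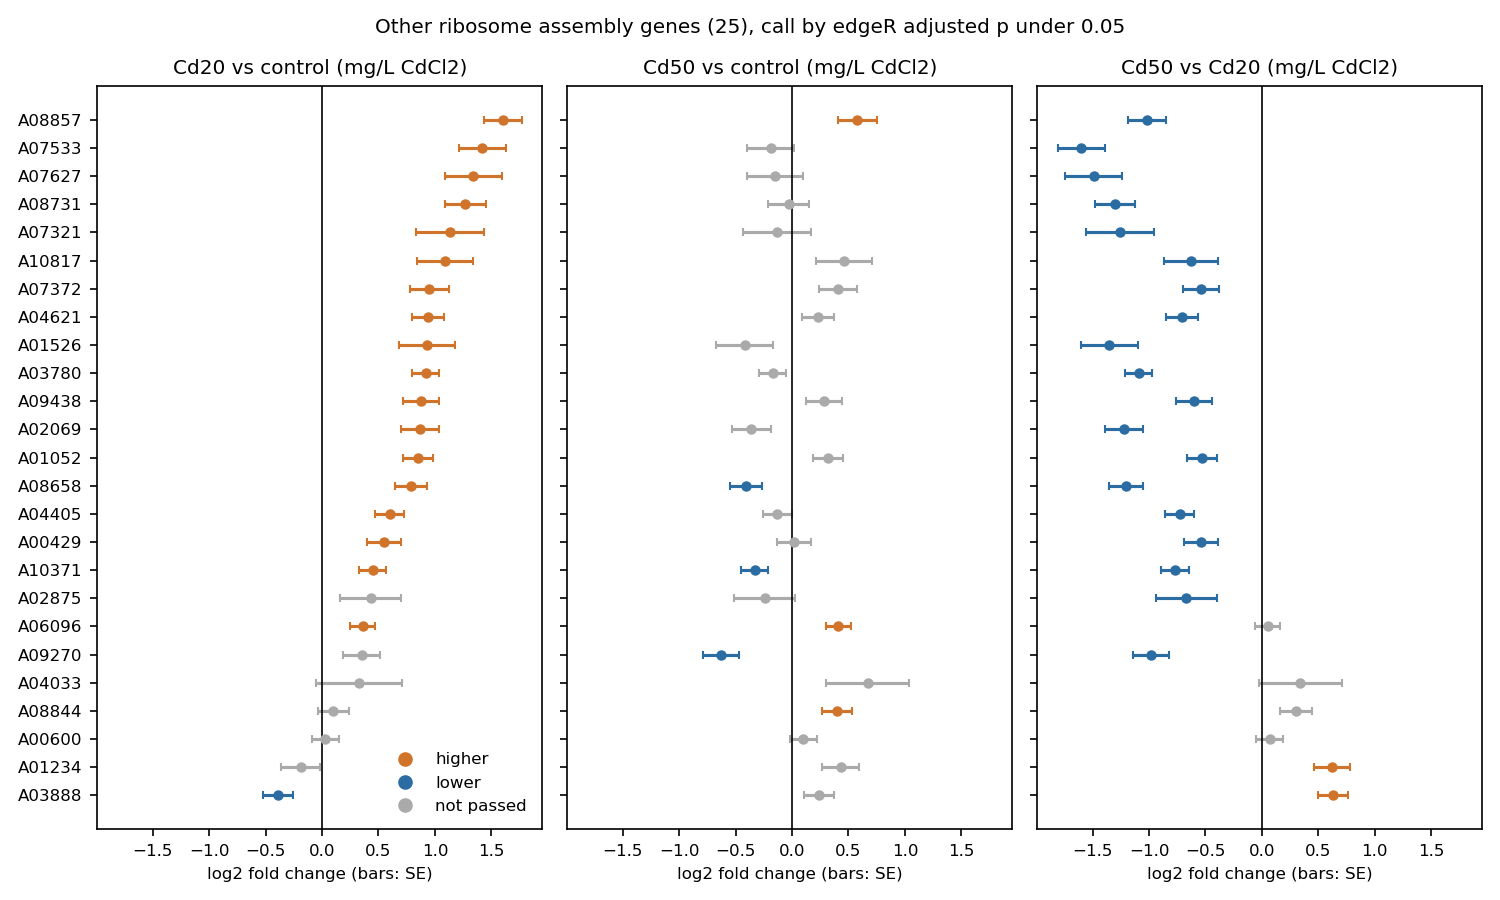
Log2 fold changes (horizontal axes, bars of 1 standard error) of the 25 other ribosome assembly genes in the 3 comparisons, ordered by the value for Cd20 against control and coloured by the edgeR call. The left panel shows 18 rises and 1 fall, the middle panel 3 and 3, and the right panel 2 and 19.

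At 50 against 20 mg/L, the members were lower with 2 exceptions. Past the threshold, 8 of 10 were lower, A00786 was higher and A02782 did not pass, where 70.0% of all genes were past it, 34.7% lower and 35.3% higher. The same 8 members lay lower without overlap between the groups and A00786 higher, against 36.9% and 37.6% of all genes. The members' median log2 fold change was -1.62 and that of all genes 0.03. The fold was largest for A08092, which was 3.99-fold lower, and for A03067, which was 3.77-fold lower, and the smallest past the threshold was that of A01975, at 1.69-fold. With library size alone the log2 fold changes of these 8 were smaller in size, at -1.68 for A08092 and -0.41 for A01975. All 8 kept the call in every alternative run, and without Control 1 and Cd50 1 the value of A08092 was -2.75. These levels chose the members, so nothing is read from the kept calls. Control 1 and Cd50 1 were left out for lying towards Cd20, so nothing is read from the larger value either.

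Among the 25 other pathway genes 19 fell and 2 rose from 20 to 50 mg/L, and 4 were under the threshold, beside the 34.7% and 35.3% of all genes, with a median of -0.71. All 5 genes of ribosomal RNA modification and all 3 large subunit genes fell, as did 6 of 8 small subunit genes and the RNA polymerase I gene. Of the 8 other processing genes 4 fell and 2 rose. A07533 (PNO1) fell to 11.3 ± 3.08 CPM from 34.2 ± 2.44 (-1.60 on the log2 scale, SE 0.21, edgeR adjusted p = 8.98e-05), A07627 (rpf2) from 95.6 ± 8.30 to 34.1 ± 14.1 and A01526 (a RIO-family kinase of small subunit maturation) from 93.7 ± 6.59 to 36.8 ± 15.7. A08731 fell from 72.0 ± 5.29 to 29.3 ± 6.46 CPM, A07321 (Fcf2 domain) from 56.4 ± 4.16 to 23.7 ± 9.25 and A02069 (rrp40, an exosome subunit) from 35.0 ± 0.799 to 15.0 ± 3.82. The genes that rose were the exosome subunit A03888 (0.63, edgeR adjusted p = 0.001) and the nucleolar phosphoprotein A01234 (0.62, 0.00543), whose mammalian namesake binds the proliferation antigen Ki-67. The falls and rises named here were taken from called genes, so values under 0.05 were fixed by that choice. Scaling by library size alone moved the all-gene median from 0.025 to 0.385, and 13 pathway genes then fell and 5 rose. The statements by role changed with it. Under the threshold there were the RNA polymerase I gene A09438 (-0.24) and the modification gene A01052 (-0.17). So were the small subunit genes A00429 (-0.18) and A07372 (-0.18) and the other processing genes A02875 (-0.33) and A10817 (-0.28). Of the 69 ribosomal protein genes 42 fell (60.9%) and 2 rose (2.90%), where 34.7% and 35.3% of all genes did.

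Within groups, the members moved together with the library. In the controls, CPM in replicate 1 divided by the mean of replicates 2 and 3 was 1.19 to 1.61 for 8 members and 0.757 and 0.716 for A02782 and A00786. In Cd50 this ratio was 3.10 for A08092, 2.45 for A05852 and A02270, 2.16 for A03067 and 1.27 to 1.87 for the other 5 members apart from A00786, which was at 0.604. The median ratio over all genes was 0.988 in the controls and 0.981 in Cd50. In Cd20 the ratio was 0.643 to 0.971 for 9 members and 1.36 for A00786, at a median of 1.00 over all genes. The members that were higher in Cd20 than in the controls were thus higher in the displaced libraries Control 1 and Cd50 1 as well, with the exception of A02782 in Control 1, and A00786 was lower there. Both libraries were singled out for lying towards Cd20, and the members were chosen by their levels, so nothing about the members is read from this shift. The part of these libraries in the differences between groups was not tested beyond leaving them out.

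**Figure D5:**
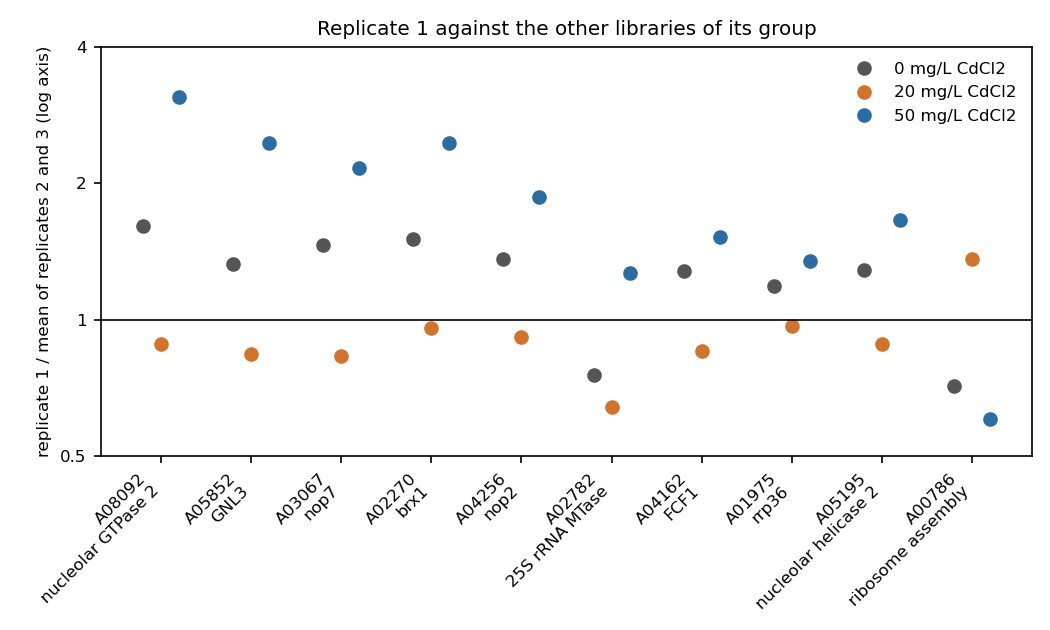
CPM of replicate 1 divided by the mean of replicates 2 and 3 of the same group (vertical axis, log scale) for each member, coloured by CdCl2 concentration. In Cd50 the ratio is above 1 for 9 members, up to 3.10 for A08092, and 0.604 for A00786.

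Across the 9 libraries, 8 of the members had Pearson correlations of log2 CPM of 0.558 to 0.992 with one another, over 28 pairs. The highest was that of A08092 with A04256 (0.992), followed by A03067 with A05852 (0.990). A05195 and A05852 were the least alike of these, at 0.558. A02782 correlated at 0.0515 to 0.788 with those 8, and A00786 at -0.982 to -0.507 with all 9 others. These values describe 9 points that share 3 groups and 2 displaced libraries, so they mainly repeat the group levels given above. Outside the set, 1319 tested genes had a product entry not marked as hypothetical, uncharacterized, unnamed or predicted. Of these, the nearest in pattern was the threonyl-tRNA synthetase A05437 for A03067 (r = 0.996) and A05852 (0.988), the ribosomal protein S8e gene A04031 for A02270 (0.995) and the RNA polymerase III subunit A07811 for A04256 (0.995). The nearest to A08092 was A10751 (a gene of a domain of unknown function, 0.995), to A05195 the SufB-like gene A10924 (0.996), to A04162 the kinase gene A04502 (0.997), to A02782 the WD40-repeat gene A06697 (0.981), to A01975 the gene A07797 (whose entry names no protein, 0.996) and to A00786 the nucleoside triphosphate hydrolase gene A08317 (0.992).

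In the authors' deposited table for 20 mg/L against control all 10 members are listed, with log2 fold changes from 2.78 for A05852 to -1.23 for A00786 and 0.71 for A02270. In the authors' deposited table for 50 mg/L against control 5 are listed (A02270 at -1.02, A05195 at -1.23, A05852 at 0.87, A04162 at -0.67 and A02782 at 0.90). In the authors' deposited table for 50 against 20 mg/L 9 are listed, all but A02782, from -2.02 for A08092 to 1.60 for A00786.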

How the data were processed

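Counts, FPKM values, product names and coordinates were used as deposited, without new alignment. Per the labels, libraries were strand-specific (dUTP) and poly(A)-selected. Tools in the submitters' processing notes are StringTie 2.2.1, DESeq2 1.34.0 and STAR 2.7.10a. How reads were counted, whether by strand, and the genome build behind the coordinates are not stated in the sources used. No member overlapped another annotated gene. The deposited count of each gene is a whole number in every library, with totals of 10457007 to 15456743. The deposited FPKM values divide counts by gene length and column total: 100% of nonzero values lay within 1% of that quotient. Gene lengths divide by 3 for 91.9% of genes, so most are taken as coding lengths. The authors' deposited tables hold log2 fold changes and adjusted p-values, with genes under 0.05 only.

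The quasi-likelihood test of edgeR 4.0.16 (R 4.3.3) was fitted once over all 9 libraries by group, after filterByExpr and TMM scaling. Calls were made at a Benjamini-Hochberg adjusted p under 0.05 over 11140 genes, leaving 1465 out. The SE of a log2 fold change is its size divided by the square root of its F statistic. Correlations used log2(CPM + 0.5). The procedure was tested on simulated data, with 66 or 67 genes changed at each size. Of 1.5-fold changes 41.8% were recovered for Cd20 against control, 31.3% for Cd50 against control and 22.4% for Cd50 against Cd20. Of 2-fold changes 73.1%, 79.1% and 65.7% were recovered, and of 4-fold changes 98.5% to 100%. Far more genes were called in the real libraries, so the simulation does not match them in that respect. Alternatives used DESeq2 1.42.0 and limma 3.58.1 on log2(FPKM + 1) and log2(FPKM + 0.1), other scalings, filters and left-out libraries. The members, the word lists and the alternatives were chosen with earlier results of these data known. The rule for naming other pathway genes took, per comparison, up to 6 rises and 6 falls of largest size. They came from genes past the threshold with a group mean of at least 10 CPM in the higher group. Values under 0.05 were thus fixed for the genes so named.

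Residuals of libraries with the same replicate number correlated at 0.623, 0.479 and 0.204 for 50 mg/L against control, over the 0.1 in every pair that was taken as pairing, although the labels do not say what a number stands for and Cd50 3 correlated better with another control (0.424).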

Additional observations from a re-analysis of the deposited data

How the results depend on the processing

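Over 19 alternatives, 228 counts of called genes were recomputed, of which 179 stayed within 1.5 times the value reported. Most of the 49 others concern 50 mg/L against control, and the cause was not tested except where stated. No named gene reversed its call, and a replicate block changed no call of a member at 50 mg/L against control or 50 against 20 mg/L, while it put A02270 past the threshold at 20 mg/L. Same-numbered residuals correlated at -0.193, 0.0782 and -0.0602 for 20 mg/L against control and -0.250, 0.152 and -0.258 for 50 against 20 mg/L. Not every pair was thus over the 0.1 taken as pairing. With 3 libraries per group these values cannot show whether same-numbered libraries are related.

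For 50 mg/L against control, pathway genes that rose (3 in the fit reported) numbered 10 with library size alone, 9 with upper quartile factors, 8 at a mean of at least 10 CPM, 5 with the replicate block, 11 in limma with either FPKM offset and 5 without both displaced libraries. Those that fell (3) numbered 1 with library size alone, upper quartile factors, the 10 CPM filter, only the 6 libraries compared and limma, and 5 without both displaced libraries. Members higher (2) numbered 1 in DESeq2, with the 10 CPM filter, which removes A02782 and A00786, and with only the 6 libraries compared. Members lower (3) numbered 5 without both displaced libraries. For 50 against 20 mg/L, pathway genes that rose (2) numbered 5 with library size alone, upper quartile factors and limma, and 4 with the 10 CPM filter and without both displaced libraries. With the 10 CPM filter 0 members were lower at 20 mg/L (1) and 0 higher at 50 against 20 mg/L (1).

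With 1 library left out, counts at 20 mg/L were 7 to 9 members and 16 to 19 pathway genes higher, and 0 to 1 pathway genes lower, with 0 without Control 2, Control 3, Cd20 2 or Cd20 3. At 50 mg/L against control they were 1 to 2 members higher, 1 to 5 members lower, 1 to 5 pathway genes higher and 1 to 7 lower, with the highest values except the first all without Cd50 1. At 50 against 20 mg/L they were 8 members and 17 to 19 pathway genes lower, and 1 member and 2 to 3 pathway genes higher.

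Scaling moved the background as well. Rises were 46.7% of all calls at 20 mg/L with TMM and 36.6% with library size alone, 44.9% and 70.9% at 50 mg/L against control, and 50.4% and 70.6% at 50 against 20 mg/L. The median of all genes moved from -0.035 to -0.156, from 0.025 to 0.262 and from 0.025 to 0.385. Counts of 20 to 131 per library limit the precision of A00786 and A02782.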

Other observations

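The members lie on 7 chromosomes of the deposited coordinates, and those on the same chromosome are 639 to 3941 kb apart. The 20 genes that flank them lie 426 to 5570 bases away, and none overlaps a member. At 20 mg/L against control 5 of these rose and 6 fell, 8 were under the threshold and 1 was not tested, beside 23.8% rises and 27.2% falls among all genes. At 50 against 20 mg/L 5 rose and 6 fell, beside 35.3% rises and 34.7% falls among all genes. Both neighbours of A05852, the cytoplasmic dynein gene A05851 (log2 fold change -1.15) and the undescribed A05853 (-1.0), fell at 20 mg/L, where A05852 itself was at 2.76. They rose at 50 against 20 mg/L, by 1.15 and 1.76. These neighbours were chosen after their values were seen.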
